A study of Mus musculus with 24 samples.

Results

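The contractile machinery of slow-twitch muscle fibers is represented here by 9 genes: Myh7, Myl3, Tnnt1, Tnnc1, Tnni1, Tpm3, Atp2a2, Myoz2 and Csrp3. They were chosen by name, as every probe whose accession belongs to 1 of these genes, and make up 9 of the 21368 genes named on the array and 13 of its 55681 probes. The series holds 24 1-color Agilent arrays, 1 for each of 4 tissues (liver, brain, heart and muscle) of 6 male mice. WT mice (WT1, WT2 and WT3, labelled RAP1 WT) were compared with Rap1 KI/KI mice (KI1, KI2 and KI3, labelled RAP1 MUT). The latter carry the I312R knock-in of Rap1, a gene whose product belongs to the shelterin complex at telomeres, in a line back-crossed to C57BL6. Age differed within each genotype: the labels give 5 months for WT1 and KI1 and 2 months for WT2, WT3, KI2 and KI3. The same 6 mice gave all 4 tissues. The labels name the tissue only as muscle, and do not say which muscle was taken. The arrays cannot read the knock-in, a point mutation, so the genotype labels were not checked against it.

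Skeletal muscle is a mosaic of fibers that differ in the isoforms they use. Slow-twitch (type I) fibers are built around the slow myosin heavy chain and slow troponins and resist fatigue, whereas fast-twitch fibers use a separate set of myosins, troponins and calcium pump. Muscles differ widely in their content of slow fibers. The mouse ventricle shares several slow-fiber genes with them, since the slow essential light chain, troponin C and the calcium pump SERCA2 are also cardiac proteins.

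Values are levels on a log2 scale, computed from the processed signal of each probe after scaling every array to its own 75th percentile. A level of 0 is that percentile and a difference of 1 is a 2-fold change. Levels of different probes were not set against each other, except that marker lists were also summed. Those sums were taken on the linear scale, where the brightest probes weigh most. The 75th percentile of the intensities ran from 470.7 to 1389 and the share of spots well above background from 56.5% to 72.7%, and no probe of the 9 genes was saturated or flagged as an outlier. The 3 slides did not hold the tissues evenly: all livers lay on slide 1 and all muscles on slide 3, the brains on slides 1 and 2 and the hearts on slides 2 and 3, with both genotypes on each. All 10 hepatocyte, neuron and glia, cardiomyocyte or skeletal muscle markers were well above background on every array of the liver, brain, heart or muscle, respectively. Some arrays stood apart in markers of other cell types. In the muscle of KI1, 9 of 10 neutrophil markers and 7 of 8 erythroid markers were above the other 5 muscles. In the muscle of KI3, 6 of 10 neuron and glia markers were above the others. In the muscle of KI2, all 10 adipocyte markers were above the other 5 muscles, and in that of WT2 all 10 were below. In the heart of KI3, 8 of 10 adipocyte markers were above the other 5 hearts, and in the heart of KI1, 7 of 10 smooth muscle markers. In the brain of WT1, 9 of 10 hepatocyte markers were above the other 5 brains.

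Upstream sequences are shown for the 7 genes with a promoter window whose highest muscle was the same mouse, KI1, as described further on. RefSeq promoter windows (GRCm38.p6) were found for 8 of the 9 genes, 12 windows in all. The stretches are the 150 bases before the annotated start, 5′ to 3′ on the strand of the gene. Where a gene has several windows, 1 is shown: the window with TATATA for Myh7 and Csrp3, and the first for Tnni1, whose windows held E-boxes and none of the other motifs. Capitals mark the MCAT element (CATTCC or its reverse, GGAATG), the CArG box, the MEF2 site and, on the strand of the gene, TATAAA or TATATA.
Myh7, chr14:54994550-54994699, minus strand: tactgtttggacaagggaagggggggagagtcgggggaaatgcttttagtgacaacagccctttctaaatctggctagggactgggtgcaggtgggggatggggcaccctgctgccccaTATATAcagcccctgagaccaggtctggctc
Myl3, chr9:110763528-110763677, plus strand: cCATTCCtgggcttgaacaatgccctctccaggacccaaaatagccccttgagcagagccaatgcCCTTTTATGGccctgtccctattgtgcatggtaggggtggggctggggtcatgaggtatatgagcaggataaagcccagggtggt
Tnnt1, chr7:4515976-4516125, minus strand: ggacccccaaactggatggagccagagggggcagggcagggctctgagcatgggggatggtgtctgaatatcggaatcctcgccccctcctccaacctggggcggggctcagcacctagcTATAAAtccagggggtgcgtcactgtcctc
Tnnc1, chr14:31208162-31208311, plus strand: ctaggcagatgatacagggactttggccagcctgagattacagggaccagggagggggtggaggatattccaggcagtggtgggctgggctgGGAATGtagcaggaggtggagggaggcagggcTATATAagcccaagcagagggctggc
Tnni1, chr1:135799271-135799420, plus strand: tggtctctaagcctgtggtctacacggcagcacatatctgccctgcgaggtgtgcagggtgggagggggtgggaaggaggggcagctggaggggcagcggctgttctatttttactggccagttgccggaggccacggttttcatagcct
Myoz2, chr3:123034988-123035137, minus strand: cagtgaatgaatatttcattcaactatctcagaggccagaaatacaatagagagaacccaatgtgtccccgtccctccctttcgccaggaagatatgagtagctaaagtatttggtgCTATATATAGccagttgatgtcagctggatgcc
Csrp3, chr7:48848052-48848201, minus strand: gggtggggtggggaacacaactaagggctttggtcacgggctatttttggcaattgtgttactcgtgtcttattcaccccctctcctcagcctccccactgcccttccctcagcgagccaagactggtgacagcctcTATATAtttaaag

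The motifs were searched in the 250 bases before the start, on both strands except for TATAAA and TATATA. Of these, the latter was found in 4 of the 12 windows, those of Myh7, Tnnc1, Myoz2 and Csrp3, at 31, 26, 32 and 13 bases before the start, and in 5.25% of all 32851 windows in the table. The match of Myoz2 lies within its MEF2 site. Tnnt1 had TATAAA at 30 bases, which 7.59% of all windows hold. The MCAT element, known as the binding site of TEAD factors, occurred in 3 of the 12 windows (Myl3, Tnnc1 and a second window of Myh7) and in 12.6% of all windows. A CArG box, the site of serum response factor, was found only for Myl3 (1.47% of all windows) and a MEF2 site only for Myoz2 (2.92%). E-boxes (CANNTG) were present in all 12 windows and in 66.2% of all windows. These matches describe letters and do not show binding.

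In WT mice, 7 of the 9 genes had their highest mean level in the heart, Tnni1 in the muscle and Tpm3 in the brain. Compared with muscle, 7 were called higher in heart by limma, at an adjusted p under 0.05, and none lower. Of all 40758 probes tested, 14.9% were called higher in heart and 29.4% in either direction. The median difference of the 9 genes, heart minus muscle, was 5.89, and that of all probes -0.08.

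**Figure D1:**
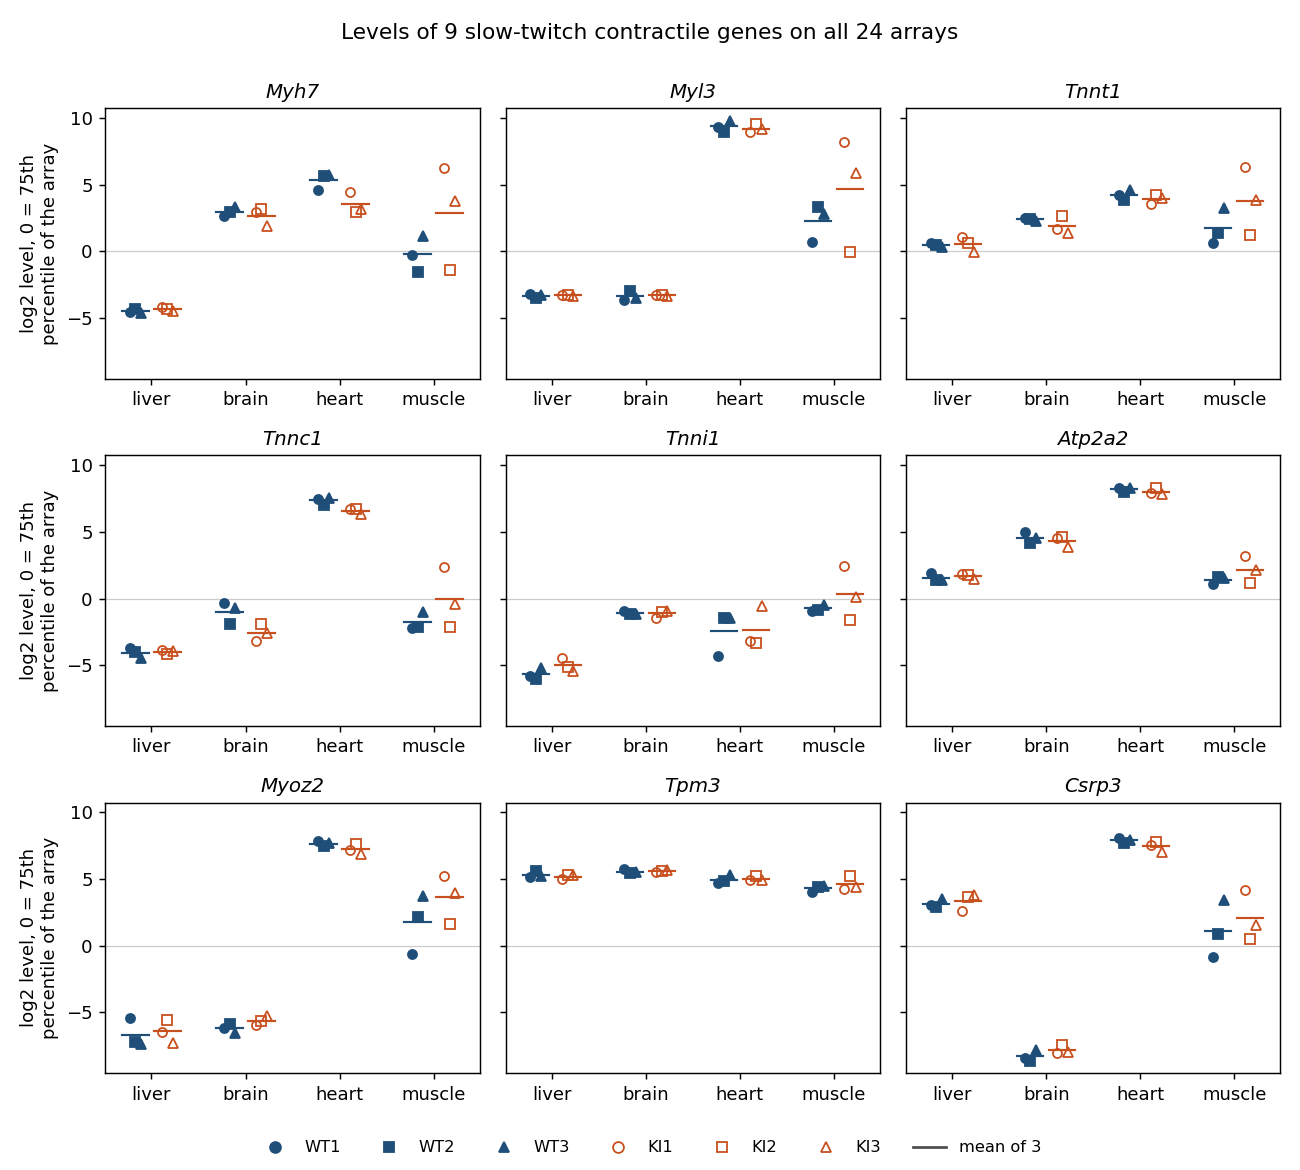
Log2 level (vertical axis, 0 is the 75th percentile of the array) of the 9 genes, each shown by its brightest probe, in the 4 tissues (horizontal axis). Each symbol is 1 mouse, filled for WT and open for Rap1 KI/KI, and lines are means of 3. For 7 genes the hearts are highest among WT means, and for each gene the muscles of both genotypes together span the widest range.

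Among the thick filament genes, Myh7 encodes the slow (beta) myosin heavy chain. In WT hearts its level was 4.64, 5.68 and 5.72, and in WT brains 2.69, 2.93 and 3.33. WT muscles lay at -0.25, -1.54 and 1.14 and WT livers at -4.56, -4.34 and -4.61, so that no tissues overlapped. Heart exceeded brain by 2.36 ± 0.55 (SE, n = 3 mice; adjusted p = 0.0035, limma), and brain exceeded muscle 9.18-fold (adjusted p = 0.00042, limma). Muscle was 19.5-fold above liver (adjusted p = 5e-05, limma). The array files used here hold no probe sequence, so whether the Myh7 probe also reads the related cardiac myosin Myh6 was not tested. Myl3, the slow and ventricular essential light chain, reached 9.35, 8.98 and 9.81 in WT hearts and 0.71, 3.31 and 2.78 in WT muscles. Brain (-3.64, -2.94 and -3.49) and liver (-3.22, -3.50 and -3.23) did not separate (adjusted p = 0.95, limma). The heart level was 139-fold that of muscle (adjusted p = 3e-06, limma), and muscle was 47.9-fold above liver (adjusted p = 5.2e-06, limma).

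The slow troponins did not share a tissue pattern. Tnnc1, troponin C of slow fibers and heart, was measured in WT hearts at 7.50, 7.01 and 7.56, against -2.21, -2.10 and -1.02 in WT muscles. This gap of 9.13 ± 0.44 (SE), or 562-fold, was the largest of the 9 genes between heart and muscle (adjusted p = 9.6e-08, limma). WT brains lay at -0.33, -1.94 and -0.71, not separated from muscle (adjusted p = 0.15, limma), and WT livers at -3.74, -4.02 and -4.43. Tnnt1, slow skeletal troponin T, had levels of 4.20, 3.84 and 4.57 in WT hearts and 0.60, 1.38 and 3.22 in WT muscles, a 5.54-fold difference (adjusted p = 0.0039, limma). That call was lost without WT1 (adjusted p = 0.051, limma) or without WT2 (adjusted p = 0.064, limma), and on slide 3 alone, which holds 1 of these hearts (adjusted p = 0.066, limma). Its brain levels (2.49, 2.45 and 2.27) were within the range of the muscles (adjusted p = 0.29, limma), and its liver levels were 0.63, 0.47 and 0.30. Tnni1 encodes slow skeletal troponin I, which the heart uses before birth and replaces afterwards. It ran the other way, at -4.28, -1.47 and -1.47 in WT hearts and -0.92, -0.84 and -0.46 in WT muscles. The difference of -1.66 ± 0.61 (SE) did not pass (adjusted p = 0.064, limma), although the groups did not overlap. The hearts and muscles of WT mice did not overlap for any of the 9 genes, as for 45.3% of all probes. WT brains, at -0.92, -1.17 and -1.14, lay close to muscle (adjusted p = 0.67, limma), and Tnni1 was well above background in 1 of 3 WT livers (-5.78, -6.03 and -5.24).

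Tpm3 encodes the slow tropomyosin as well as widely used forms of the protein. Its brightest probe varied least over tissues: 5.72, 5.45 and 5.49 in WT brains, 5.17, 5.62 and 5.20 in WT livers, 4.67, 4.85 and 5.26 in WT hearts and 3.99, 4.40 and 4.50 in WT muscles. Muscle was the lowest and passed against brain (2.38-fold lower, adjusted p = 0.00083, limma) and liver (2.05-fold lower, adjusted p = 0.0032, limma) but not against heart (adjusted p = 0.072, limma). The other Tpm3 probes were called the opposite way against liver, with muscle higher by 3.19 (A_55_P2090205, adjusted p = 0.00019, limma) and at least 6.29-fold (A_55_P2246235, adjusted p = 0.00098, limma). Against brain they split. Muscle was lower for A_55_P2090205 (2.79-fold, adjusted p = 0.022, limma) and at least 8.2-fold higher for A_55_P2246235 (adjusted p = 0.00029, limma).

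Calcium handling and Z-disc genes were strongly cardiac. Atp2a2, the calcium pump SERCA2 of slow fibers and heart, lay at 8.27, 7.99 and 8.28 in WT hearts, 109-fold above the WT muscles at 1.10, 1.61 and 1.54 (adjusted p = 2.3e-08, limma). WT brains (4.97, 4.19 and 4.51) were also above muscle (8.80-fold, adjusted p = 1.5e-06, limma), whereas WT livers (1.94, 1.36 and 1.39) were not separated from muscle (adjusted p = 0.66, limma). Myoz2, a calcineurin-binding Z-disc protein, was at 7.85, 7.44 and 7.67 in WT hearts and at -0.60, 2.17 and 3.72 in WT muscles (59.3-fold, adjusted p = 0.00044, limma). It was well above background in no WT brain and in 1 of 3 WT livers, and heart exceeded brain at least 14800-fold (adjusted p = 1.6e-07, limma). For such lower limits, each dim value was first raised to the lowest signal that was well above background on its array. Csrp3, muscle LIM protein, was measured at 8.05, 7.72 and 7.93 in WT hearts and -0.87, 0.85 and 3.39 in WT muscles (110-fold, adjusted p = 7.5e-05, limma). WT livers held it at 3.04, 2.87 and 3.48, and no WT brain was well above background. Liver was thus at least 749-fold above brain (adjusted p = 1.7e-07, limma). Liver also exceeded the mean of the muscles (adjusted p = 0.049, limma), with overlapping groups. That call was lost without WT1 (adjusted p = 0.29, limma) or without WT2 (adjusted p = 0.2, limma). Csrp3 was read by 1 probe, and whether that probe also reads other transcripts was not tested.

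Against the other tissues, 7 members were called higher and 1 (Tpm3) lower in heart than in brain, where 56.1% of all probes were called. The call of Tpm3 was lost with the mouse as a block (adjusted p = 0.054, limma) and without any 1 of the 3 mice (adjusted p = 0.066 to 0.23, limma). For heart over liver the count was 8, with 51% of all probes called. Muscle against brain gave 3 higher (Myl3, Myoz2 and Csrp3) and 3 lower (Myh7, Atp2a2 and, by its brightest probe, Tpm3). Here 59% of all probes were called. Muscle against liver gave 5 higher and 2 lower (Tpm3, by its brightest probe, and Csrp3), with 55.4% of all probes called. With slide as a block 3 of these 7 were called (Myl3, Tnnc1 and Myoz2). Brain against liver gave 5 higher and 1 lower (Csrp3), with 67.6%. The median of all probes itself differed between tissues, by 0.28 for muscle minus brain and -0.33 for brain minus liver. The fit used 1 spread per probe for all 4 tissues, although the SD of Myh7 was 1.34 in WT muscles and 0.14 in WT livers. In bulk tissue, fewer cells of a type and less RNA per cell cannot be told apart.

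Heart and muscle were also compared within Rap1 KI/KI mice. Here 5 of the 9 genes were called higher in heart (Myl3, Tnnc1, Atp2a2, Myoz2 and Csrp3), where 12.7% of all 41233 probes were called higher and 26.8% in either direction. With slide as a block 3 were called, and Myl3 (adjusted p = 0.28, limma) and Myoz2 (adjusted p = 0.11, limma) were not. The same 5 genes did not overlap, as held for 43% of all probes. Tnnc1 differed by 6.64 ± 0.85 (SE; adjusted p = 0.00024, limma) and Atp2a2 by 5.82 ± 0.43 (adjusted p = 4.7e-06, limma). Myh7 differed by 0.68 ± 1.45 (adjusted p = 0.77, limma) and Tnnt1 by 0.14 ± 0.98 (adjusted p = 0.93, limma), in overlapping groups. Tnni1 stood at -2.68 ± 0.94 (adjusted p = 0.057, limma). The call of Myl3 (4.54 ± 1.52, adjusted p = 0.048, limma) was lost without any 1 of the 3 mice (adjusted p = 0.056 without KI1, 0.1 without KI2 and 0.15 without KI3, limma). Without the muscle array of KI1 alone, an alternative chosen after the data were seen, Myl3 differed by 6.30 (adjusted p = 0.0064, limma) and Myh7 by 2.37 (adjusted p = 0.19, limma).

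**Figure D2:**
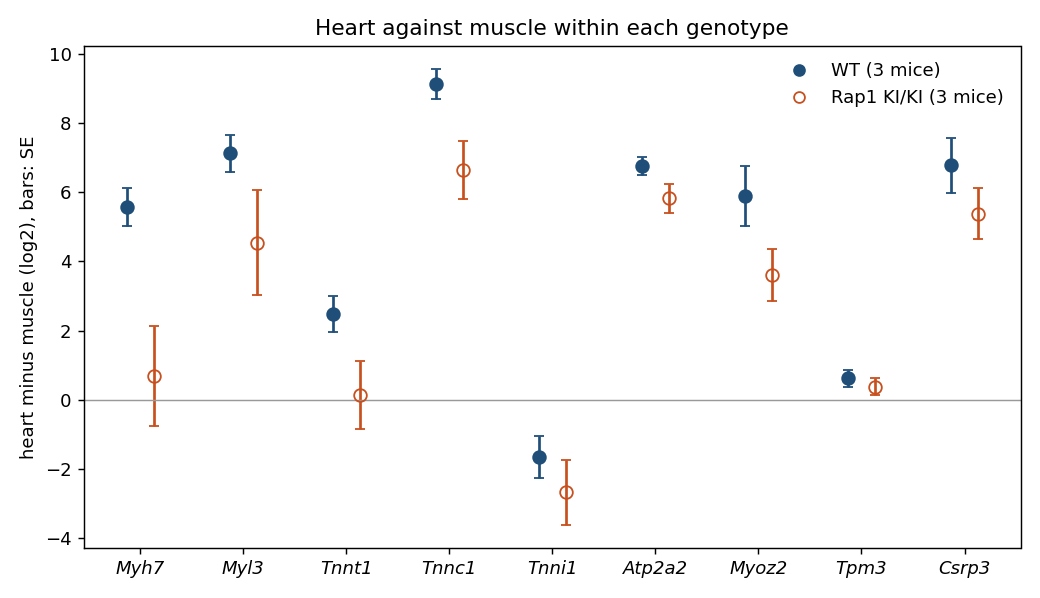
Difference in log2 level between heart and muscle (vertical axis) for each gene (horizontal axis) in 3 WT mice (filled) and 3 Rap1 KI/KI mice (open), with SE from limma. In WT mice 7 genes were called higher in heart, in Rap1 KI/KI mice 5 (3 with slide as a block), and the KI estimates of Myh7 and Tnnt1 lie within 1 SE of 0.

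The 6 muscles differed from each other far more in these genes than in most. The highest level of Myh7 exceeded the lowest by 7.79, or 222-fold, a larger range than that of 99.9% of the 32382 probes tested in muscle, whose median range was 0.84. Ranges were 8.25 for Myl3, 5.86 for Myoz2, 5.72 for Tnnt1, 5.02 for Csrp3, 4.56 for Tnnc1, 4.04 for Tnni1, 2.11 for Atp2a2 and 1.24 for Tpm3. These exceeded the range of at least 98.1% of probes for all but Atp2a2 (91.1%) and Tpm3 (73.9%). Within the hearts, Tnni1 (97.7%) and Myh7 (93.9%) had the widest ranges of the 9 genes, and the next, Tnnc1, exceeded 62.3% of probes.

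By mouse, Myh7 in muscle was -0.25 in WT1, -1.54 in WT2, 1.14 in WT3, 6.26 in KI1, -1.42 in KI2 and 3.75 in KI3. Myl3 was 0.71, 3.31 and 2.78 in WT1, WT2 and WT3, and 8.21, -0.04 and 5.87 in KI1, KI2 and KI3. For both thick filament genes KI1 was highest, 5.70-fold and 5.07-fold above the next mouse, KI3 was second, and KI2 lay within or below the WT muscles.

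The troponins followed the same mice. Tnnt1 had levels of 0.60, 1.38 and 3.22 in WT1 to WT3 and 6.32, 1.22 and 3.88 in KI1 to KI3. Tnnc1 was at -2.21, -2.10 and -1.02, against 2.35, -2.15 and -0.40. Tnni1 was at -0.92, -0.84 and -0.46, against 2.45, -1.59 and 0.09. KI1 exceeded the next muscle 5.45-fold, 6.74-fold and 5.13-fold, and that next muscle was KI3 each time. Tropomyosin differed: the brightest Tpm3 probe had 3.99, 4.40 and 4.50 in WT1 to WT3 and 4.27, 5.24 and 4.43 in KI1 to KI3, with KI2 highest and KI1 within the WT range.

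Atp2a2 was at 1.10, 1.61 and 1.54 in WT1 to WT3 and 3.21, 1.19 and 2.12 in KI1 to KI3, with KI1 2.12-fold above KI3. Myoz2 was at -0.60, 2.17 and 3.72, against 5.25, 1.63 and 3.95. Csrp3 was at -0.87, 0.85 and 3.39, against 4.14, 0.50 and 1.54. For these Z-disc genes the WT muscles alone spanned 20-fold (Myoz2) and 19.2-fold (Csrp3), KI1 was 2.46-fold and 1.68-fold above the next mouse, and for Csrp3 that mouse was WT3. Over the 9 genes KI1 was highest for 8 and KI3 second for 7, and KI2 lay within the WT range for 6. WT1, the other 5-month-old mouse, was lowest for 6 of the 9. Leaving KI1 aside, the remaining 5 muscles still spanned 39-fold for Myh7, 60-fold for Myl3 and 23.6-fold for Myoz2.

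**Figure D3:**
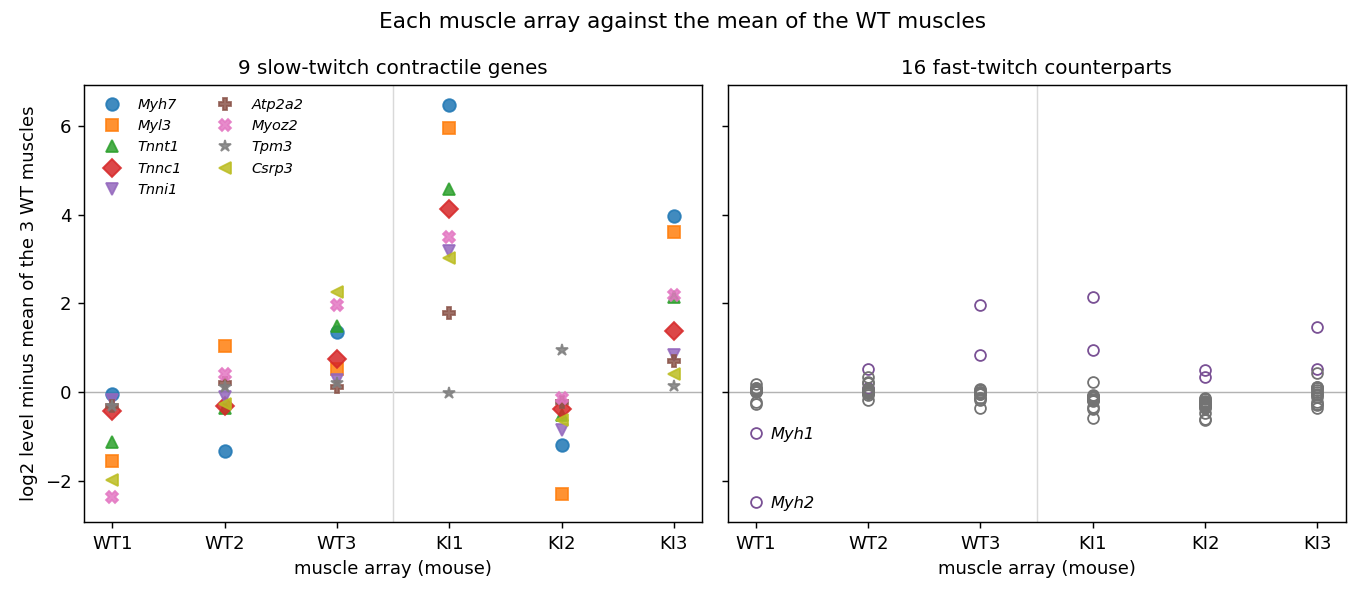
Level of each gene on each muscle array (horizontal axis) minus its mean over the 3 WT muscles (vertical axis, log2), for the 9 slow-twitch genes (left) and 16 fast-twitch counterparts (right, 1 circle per gene, 1 value missing in KI3). KI1 is highest for 8 of the 9 slow-twitch genes and KI3 second for 7, while KI2 lies near the WT muscles, and most fast-twitch genes stay near 0 on all 6 arrays.

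Between genotypes, the muscle estimate (Rap1 KI/KI minus WT) was above 0 for all 9 genes, with a median of 1.71 against -0.07 over all probes, but the genotypes overlapped for each of them. Groups that did not overlap were found for 6.44% of all probes in muscle. By limma 0 of the 9 genes were called (adjusted p = 0.94 for each), 0 had an unadjusted p under 0.05, and 0% of all 32382 probes were called. At an unadjusted p under 0.05 the share of all probes was 2.48%. The largest estimates were those of Myh7 (3.08 ± 1.80, SE), Myl3 (2.42 ± 1.95) and Tnnt1 (2.07 ± 1.26), and the exact permutation p was 0.3, 0.5 and 0.3, where 3 mice against 3 cannot go below 0.1. Without KI1, the estimate was 1.38 for Myh7, 0.65 for Myl3, 0.81 for Tnnt1 and 0.50 for Tnnc1, and it was 0 for Tnni1 and -0.11 for Csrp3. Without KI2, it was 5.22 for Myh7, 4.78 for Myl3, 3.36 for Tnnt1, 2.75 for Tnnc1, 2.01 for Tnni1 and 1.72 for Csrp3 (adjusted p = 1 for each, limma). All muscle arrays were on 1 slide.

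Of a list of 16 fast-twitch counterparts, 0 passed between genotypes in muscle, and their median was -0.12. KI2 was the lowest muscle for 10 of these 16 genes. The brightest, Tnni2, Pvalb, Tnnc2 and Tpm1 (fast troponin I, parvalbumin, fast troponin C and alpha-tropomyosin), had ranges of 0.38, 0.68, 0.33 and 0.35 over the 6 muscles. Myh2, the myosin of the oxidative fast fibers, was singled out after its values were seen: 4.20, 7.21 and 8.65 in WT1 to WT3 and 8.84, 7.19 and 8.16 in KI1 to KI3. WT1 stood alone at the low end, and KI1 and WT3 were highest. In WT heart against WT muscle, 15 of the 16 fast-twitch genes were called lower in heart, with a median of -9.64, while 14.5% of all probes were called lower. Casq1 has no value in KI3, where its spot was flagged as an outlier, and its fit used the other 5 muscles.

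A list of 14 other genes was drawn up for slow fibers, though not all of them are particular to such fibers. Of the 14, 0 passed between genotypes in muscle (median 0.49), and 10 were highest in KI1. Among the brightest, Mb (myoglobin) was at 7.27, 8.16 and 8.56 in WT1 to WT3 and 9.15, 7.67 and 8.46 in KI1 to KI3, and Mybpc1, slow myosin-binding protein C, at 5.42, 6.79 and 7.82, against 7.91, 6.92 and 6.73. Cox6a2 and Smpx had ranges of 0.46 and 0.79. KI1 was thus highest for Mb and Mybpc1, with WT3 next to it. For 17 regulators of fiber type the median was -0.15, 0 passed, and 7 were highest in KI1 and 7 in WT1. The brightest were Ppp3ca (the catalytic subunit of calcineurin), Eya1, Vgll2 and Tbx15, with estimates of -0.18, -0.53, 0.10 and -0.50. Esrrb, an orphan nuclear receptor chosen after its values were seen, was at -1.01, -0.20 and 1.06 in WT1 to WT3 and 2.90, -0.33 and 0.31 in KI1 to KI3, an order in which KI1 is first and WT3 second.

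Among markers of other cell types, the neutrophil list had the same first and second muscle as most of the 9 genes. Its summed level over 10 markers was 96.5 in KI1 and 14 in KI3, against 1.65 to 3.95 in the other 4 muscles, and all 10 were well above background in KI1 and KI3. S100a9, the brightest, was at 5.92 in KI1, 3.1 in KI3 and -0.87 to 1.03 in the others. The summed level of the erythroid markers was 678 in KI1, 535 in KI2 and 261 to 441 elsewhere, so that KI2 and not KI3 was second. The neuron and glia markers summed to 146 in KI3, with KI1, at 98.5, within the range of the others (81.9 to 123). By marker, 9 of 10 were well above background in KI3 and in KI1, against 6 or 7 in the other muscles. Their median deviation from the WT mean was 3.59 in KI3 and 0.77 in KI1, against -0.07 to 0.04 in the others. The part of these markers in the results was not tested. The 10 cardiomyocyte markers summed to between 1.59 and 6.07 in all 6 muscles, against 1960 to 3470 in the hearts. KI1 had the highest sum (6.07) and WT3 the next (5.12). In KI1, 3 of the 10 were above the other 5 muscles and 1 was below them. On each muscle array 5 or 6 of the 10 were well above background, and Nkx2-5, Myl7 and Corin were so in no muscle. Skeletal muscle markers summed to between 3940 and 4810, with KI1 at 4390, within the range of the others. KI2 had the lowest sum and was lowest for 7 of the 10. Adipocyte markers were highest in KI2, with all 10 above the other 5 muscles.

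In the heart, 2 of the 9 genes had all Rap1 KI/KI mice below all WT mice. Myh7 was at 4.64, 5.68 and 5.72 in WT1 to WT3 and at 4.46, 2.99 and 3.17 in KI1 to KI3, a difference of -1.81 ± 0.48 (SE), or 3.51-fold lower. Tnnc1 was at 7.50, 7.01 and 7.56, against 6.70, 6.69 and 6.34, a difference of -0.78 ± 0.24, or 1.72-fold lower. Among pairs of a WT and a KI heart, those of the 5-month-old mice, WT1 and KI1, lay closest for Myh7. Groups that did not overlap were found for 14.7% of all 34848 probes, and with KI below WT for 8.68%. Neither gene passed adjustment (adjusted p = 0.65 for both, unadjusted p = 0.0074 and 0.015, limma; exact permutation p = 0.1, the smallest possible). At an unadjusted p under 0.05, 7.51% of all probes differed in heart, and 0% passed adjustment. On slide 2, which held the hearts of WT1, WT2, KI1 and KI2, the differences were -1.44 and -0.56.

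Of the other genes, Atp2a2 lay at 8.27, 7.99 and 8.28 in WT hearts and 7.89, 8.27 and 7.82 in KI hearts, Myoz2 at 7.85, 7.44 and 7.67 against 7.20, 7.62 and 6.84, and Csrp3 at 8.05, 7.72 and 7.93 against 7.56, 7.76 and 7.01. For each of these 3 genes KI1 and KI3 lay below all WT hearts and KI2 among them. Tnni1 scattered in both genotypes, at -4.28, -1.47 and -1.47 against -3.16, -3.36 and -0.58. Myl3, Tnnt1 and Tpm3 differed by -0.16, -0.26 and 0.11. KI1 was below the WT range for 7 of the 9 genes and KI3 for 5. The summed adipocyte markers were 396 in KI1, 288 in KI2 and 684 in KI3, against 233 to 250 in WT hearts, and the smooth muscle markers 447, 210 and 322 against 153 to 247. By marker, the median deviation of the adipocyte list from its mean over the hearts was -4.14 in WT1, -0.54 in WT2 and -0.49 in WT3. In KI1, KI2 and KI3 it was 1.94, -0.39 and 3.56, so that KI2 lay with WT2 and WT3. Cardiomyocyte markers summed to between 1960 and 2580 in KI hearts and between 2060 and 3470 in WT hearts. The part of these markers in the heart values was not tested.

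In brain and liver the genotypes overlapped for all members tested, where 7.73% of all probes in brain and 5.84% in liver did not overlap. Tnnc1 in brain was at -0.33, -1.94 and -0.71 in WT1 to WT3 and -3.18, -1.92 and -2.59 in KI1 to KI3, a difference of -1.57 ± 0.51 (SE; unadjusted p = 0.021, adjusted p = 1, limma). WT1, the highest brain, was also the brain in which 9 of 10 hepatocyte markers were highest (a median of 2.37 above their mean over the brains), whose part in the result was not tested. Without WT1 the difference was -1.23, and on slide 2, which held the brains of the 2-month-old mice, -0.93. Of all 37836 probes tested in brain, 0% passed adjustment and 2.62% had an unadjusted p under 0.05. Estimates of the other brain members tested ran from -0.50 for Tnnt1 to 0.08 for Myl3. Liver estimates of the 8 members tested ran from -0.15 for Tpm3 to 0.68 for Tnni1 (adjusted p = 1, limma), and 0% of 35240 probes passed, with 2.13% at an unadjusted p under 0.05. Myoz2 was not tested in liver and brain, nor Csrp3 in brain, because fewer than 3 arrays were well above background.

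**Figure D4:**
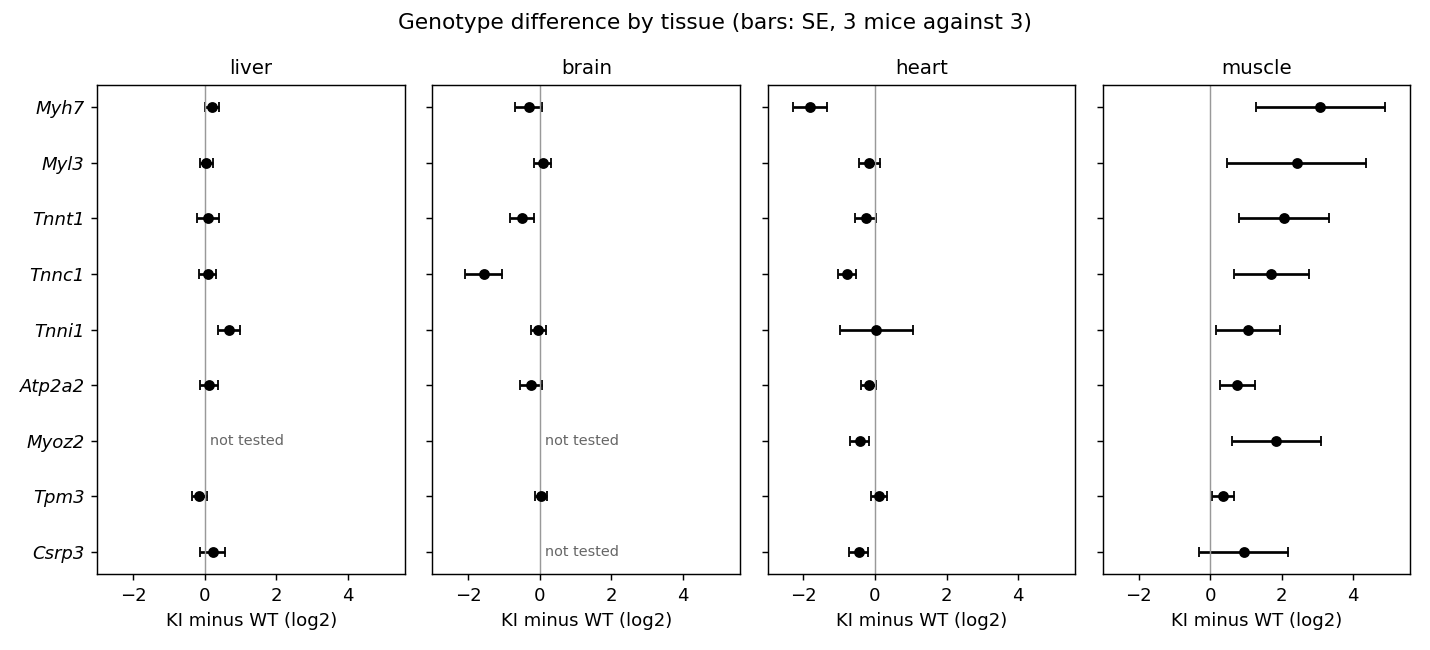
Rap1 KI/KI minus WT in log2 level (horizontal axis) with its SE from limma, for each gene (vertical axis) and tissue (panels), 3 mice per genotype. All 9 muscle estimates lie above 0 with wide errors, Myh7 and Tnnc1 lie below 0 in heart, and no gene passed the adjusted threshold.

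The genotype difference was compared between tissues by an interaction fit on all 24 arrays. Of the 9 genes 0 were called (adjusted p = 1 for each, limma), with 0% of 43675 probes called. The unadjusted p of the interaction in limma was lowest for Tnnc1 and Myh7, and at an unadjusted p under 0.05, which Tnnc1 alone of the 9 passed, the share of all probes was 2.94%. This fit tested all tissues jointly, so the opposite signs of Myh7 in heart and muscle were not themselves tested.

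For 3 of the genes, several probes could be compared. The second Tnnt1 probe repeated the first, with a muscle estimate of 2.30 ± 1.29 (SE) and KI1 6.31-fold above KI3. The second Atp2a2 probe had the same order of the first 2 muscles, KI1 and KI3, but placed liver above muscle by 2.97 (adjusted p = 9.7e-06, limma), where the first probe showed no separation. The 3 Tpm3 probes disagreed. A_55_P2090209, which carries the accession of 1 RefSeq transcript, was the even probe described above. A_55_P2090205 and A_55_P2246235 carry the accession of another transcript, and in muscle both were highest in KI1, 6.79-fold and 7.37-fold above KI3, the next muscle. Probe A_55_P2246235 lay at -4.55, -3.60 and -1.84 in WT1 to WT3 and 1.19, -4.23 and -1.69 in KI1 to KI3. It was well above background in muscle and in no WT heart, at least 4.64-fold higher in WT muscle than in WT heart (adjusted p = 0.0011, limma). A_55_P2090205 was also measured in WT brains, at 1.33, 0.91 and 1.09, above the WT hearts (3.91-fold, adjusted p = 0.005, limma). The mean of the 3 probes put WT muscle above WT heart by 1.30 (adjusted p = 0.035, limma), opposite to the brightest probe.

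**Figure D5:**
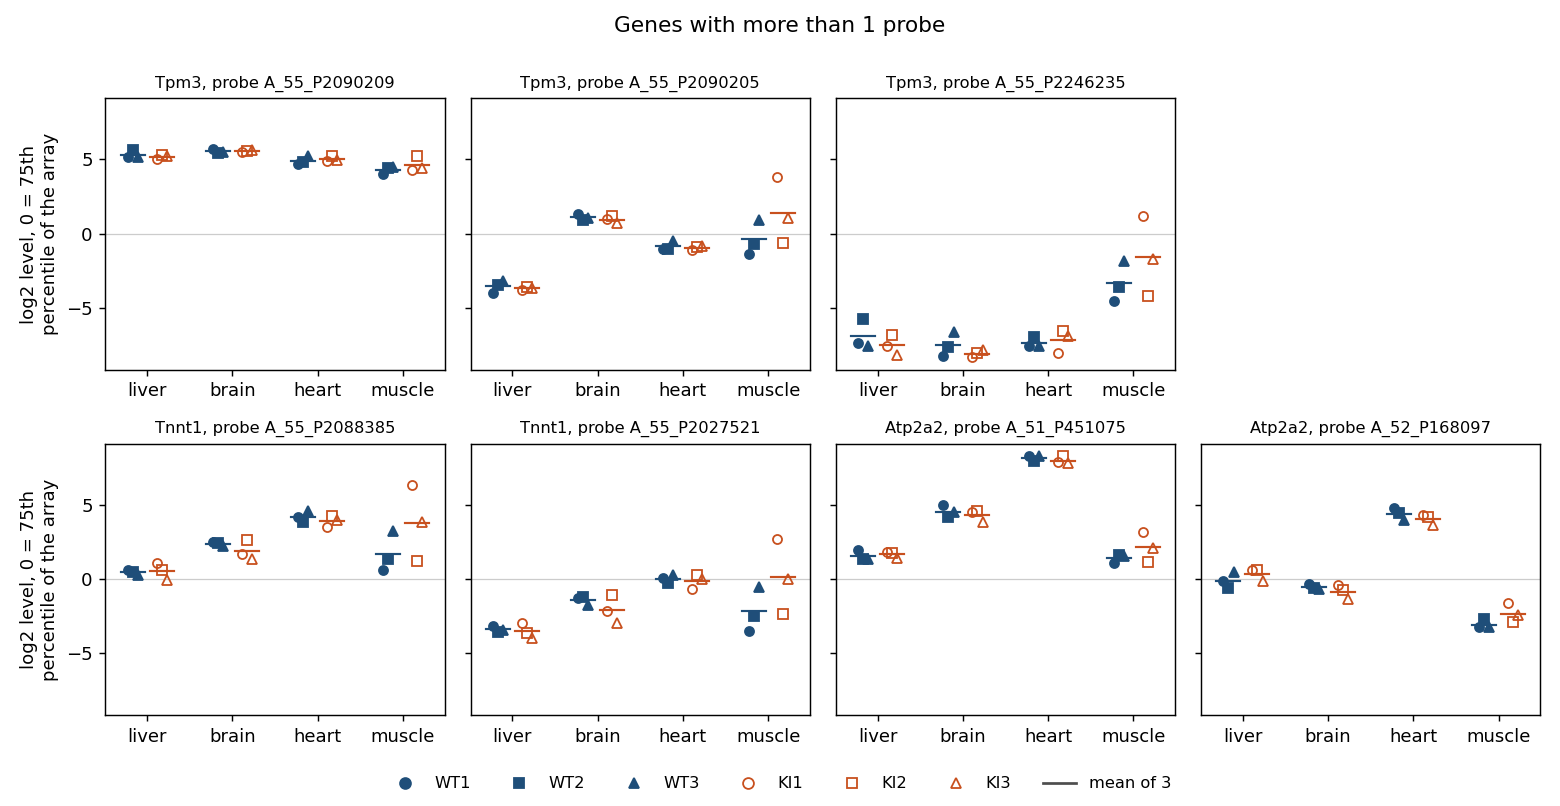
Log2 level (vertical axis, 0 is the 75th percentile of the array) in 4 tissues (horizontal axis) for the probes of Tpm3, Tnnt1 and Atp2a2, with 1 symbol per mouse and lines for means of 3. The Tpm3 probe on the left is even over tissues, whereas the other Tpm3 probes spread widely in muscle with KI1 on top.

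For each gene the non-member with the most similar profile over all 24 arrays was found by the root mean square difference of centered levels, among 21359 genes. Heart genes came up for Tnnc1 (Tnnt2, cardiac troponin T, difference 0.99) and Myl3 (Myh6, the alpha myosin heavy chain, 1.66). The others were Ldhb for Myh7 (1.27), Gm42192 for Tnnt1 (0.82), Ramp1 for Tnni1 (0.92), Pde1c for Atp2a2 (0.58), Hspb7 for Myoz2 (1.67), Fbxo42 for Tpm3 (0.24) and Gata6 for Csrp3 (2.63). The median difference from Myh7 over all genes was 3.80. Over the 6 muscles alone, the 5 genes nearest to Myh7 among 6740 were Myl2 (1.13), Myh7b (1.22), Camp (1.36), Bdh1 (1.57) and S100a9 (1.66). Myl2, the slow regulatory light chain, was at -0.63, 1.17 and 1.72 in WT1 to WT3 and 5.83, -0.54 and 3.27 in KI1 to KI3. Camp, the neutrophil granule protein cathelicidin, was at -2.61, -1.75 and -3.31, against 3.66, -2.69 and 0.48. Myl2 and Camp both had KI1 as the highest and KI3 as the second muscle, and they differed in WT3, which came next for Myl2 and was lowest for Camp.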

How the data were processed

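RNA from 4 tissues of 6 mice was measured on 24 1-color Agilent arrays. The authors scanned them with Feature Extraction 12.0.3.1 and deposited 1 scanner file per array, with background-corrected processed intensity per spot and mm9 as the design build, and a series table of z-scores (score values) per array. Recomputed z-scores differed from that table by at most 0.005. Here, log2 processed intensities were scaled to the 75th percentile of each array, and control spots and outlier flags were removed. Spots of a probe were averaged, and the brightest probe on average stood for its gene. Probes well above background on at least 3 arrays of a fit were tested two-sided with limma 3.58.1 in R 4.3.3, with Benjamini-Hochberg adjustment over all probes tested and a threshold of 0.05. Tissues were compared on the 12 WT arrays, with 1 spread per probe for all tissues, heart and muscle of Rap1 KI/KI mice on the KI arrays, and genotypes within each tissue. The number of arrays limits the precision. Probes were named through RefSeq accessions, and 27350 of the 55681 probes had no name.

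The 9 genes, the lists and the marker sets were chosen with earlier results of these data known. Named genes are the 9 members, the 4 brightest of a list and the nearest genes by profile; others are said to be chosen after their values were seen. The tissues came from the same mice, so the mouse pairs them. The correlation of deviations from the group means between tissues of a mouse ran from -0.32 to 0.38 with a median of 0.09 over 36 pairs. Alternatives were quantile normalization, normexp (offset 50, on median signals, the columns at hand), the z-score table, other filters and variance models, all probes of a gene, each mouse left out, and the mouse, age or slide as a block. The models were tested on simulated data. Promoter sequences are those of RefSeq (GRCm38.p6).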

Additional observations from a re-analysis of the deposited data

How the results depend on the processing

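Over 1443 alternative values of single genes, 1337 kept their direction and side of the threshold. Of these, 720 were uncalled in both the main fit and the alternative. A call was lost by 36 and gained by 19, and 51 changed sign, 47 of them uncalled in both. No alternative called a member between genotypes (lowest adjusted p = 0.46 in heart and 0.52 in muscle, limma). The count of members called changed by over 1.5 times to 5 for WT heart against liver with probes well above background on all arrays, and with slide as a block to 3 for WT muscle against liver and to 3 for KI heart against muscle. The mouse as a replicate block ended only the calls of Myl3 in KI heart against muscle (adjusted p = 0.056, limma) and Tpm3 in WT heart against brain (adjusted p = 0.054, limma). Under the filter that changed the count for WT heart against liver, Tnni1, Myoz2 and Csrp3 dropped out untested. They were not well above background on every WT array. The cause of the other changes was not tested.

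These values changed sign. With normexp, the liver genotype estimates were -0.11 (Myh7), -0.05 (Myl3), -0.16 (Tnnc1) and -0.13 (Tnni1), brain Myl3 -0.02, heart Tnni1 -0.08 and Myoz2 in WT brain minus liver -0.32. With the mean over probes, Tnnt1 was -0.01 in liver and -0.05 in KI heart minus muscle, and Tpm3 was -0.24 in brain, -1.30 in WT heart minus muscle (adjusted p = 0.035, limma), 0.61 in WT heart minus liver, 0.48 in WT muscle minus brain, 1.91 in WT muscle minus liver (adjusted p = 0.0022, limma) and -2.52 in KI heart minus muscle (adjusted p = 0.0081, limma). Within 1 slide, brain Myl3 was -0.07 and Tnni1 0.20, and heart Myl3 0.08 and Tnni1 -0.39. With quantile normalization, heart Myl3 was 0 and Tnni1 -0.07, Tpm3 in WT heart minus liver 0.06 and Atp2a2 in WT muscle minus liver 0.02. Without the muscle array of KI1, chosen after the data were seen, Tnni1 was 0 and Csrp3 -0.11. With slide as a block, Tnni1 in WT muscle minus brain was -1 and Atp2a2 in WT muscle minus liver 0.33, and in the z-score table Myl3 in WT brain minus liver was 0.04.

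Leaving out 1 mouse at a time, genotype estimates ran in liver from -0.19 to 0.40 (Tnnt1), 0 to 0.59 (Csrp3), -0.05 to 0.09 (Myl3) and -0.11 to 0.24 (Tnnc1). In brain they ran from -0.15 to 0.12 (Tnni1), -0.54 to 0.09 (Myh7), -0.02 to 0.11 (Tpm3) and -0.07 to 0.28 (Myl3), in heart from -0.90 to 0.53 (Tnni1), -0.02 to 0.27 (Tpm3) and -0.36 to 0.05 (Myl3), and in muscle from 0 to 2.01 (Tnni1), -0.11 to 2.07 (Csrp3), 1.38 to 5.22 (Myh7) and 0.65 to 4.78 (Myl3). Between tissues, they ran from -0.34 to 0.20 for Atp2a2 in WT muscle minus liver, -0.34 to 0.15 for Myl3 in WT brain minus liver, and -1.19 to 1.91 for Myh7 and -1.32 to 1.59 for Tnnt1 in KI heart minus muscle.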
